A study of Mus musculus with 12 samples.

Results

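Cardiac gene expression was compared between 3 hearts of STING-/- mice and 3 hearts of wild-type (WT) mice that received no cisplatin. These 6 hearts were chosen by their labels, genotype Tmem173-/- or wild type and treatment untreated, out of the 12 hearts of the study. All 6 came from male mice, 8 weeks old at the start, of the strain C57BL/6 in the labels and C57BL/6J in the methods, and the methods describe saline for the WT group. The other 6 hearts came from mice of both genotypes given cisplatin (CDDP), and are used below as separate hearts in which the genotype difference can be looked up. They also count in the filter and in the spread that the tests use. According to the methods, the STING-/- mice were bought from the Jackson Laboratory and the WT mice from Vital River in Beijing. Loss of STING, supplier and colony therefore cannot be told apart in this comparison, since littermates were not used. The question that the comparison addresses is what the loss of STING does to the heart at rest, which is the reference for its effect under cisplatin.

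STING, encoded by Sting1 (formerly Tmem173), is an adaptor protein of the endoplasmic reticulum. The enzyme cGAS binds DNA in the cytosol and makes the messenger cGAMP, which STING recognises. STING then recruits the kinase TBK1, which activates the transcription factor IRF3 and leads to type I interferons and interferon-stimulated genes, alongside a branch through NF-kB. In the healthy heart the pathway is mainly known from macrophages, endothelial cells and fibroblasts, and it is largely silent without DNA in the cytosol.

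Values are TPM, the abundance of transcripts corrected for gene length, with every heart scaled to the same total. The number of reads behind them is unknown. Differences are given as STING-/- minus WT on the log2(TPM + 1) scale, which understates the change of genes with low TPM. Genes that reached a TPM of 1 in 3 or more of the 12 hearts, 13815 in number, were tested with limma, and a gene was said to rise or fall only with an adjusted p under 0.05. Groups are called apart where every STING-/- heart lay on the same side of every WT heart. For 3 hearts against 3 this has an exact permutation p of 0.1, so it is a description and not a call. The hearts held 19873 to 20974 genes above 0, and mitochondrially encoded genes took 19.5% to 26.1% of the TPM. All 6 expressed the sarcomere genes Tnnt2 (5784 to 6942 TPM) and Myl2 (5976 to 14303 TPM), as cardiac tissue does.

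WT heart 2 stood apart from the other WT hearts. Across the tested genes its correlation with WT hearts 1 and 3 was 0.939 to 0.948, against 0.963 to 0.969 with the STING-/- hearts and 0.969 between WT hearts 1 and 3. Atrial genes differed most visibly. Myl7, the atrial regulatory myosin light chain, was at 5.68, 6537 and 2.48 TPM in WT hearts 1 to 3 and at 393, 2090 and 1569 TPM in STING-/- hearts 1 to 3. Sln, an atrial inhibitor of the calcium pump, was at 0.09, 833 and 0.08 TPM in the WT hearts and at 68.0, 281 and 190 TPM in the STING-/- hearts. WT hearts 1 and 3 thus held almost no atrial transcript, WT heart 2 held the most, and the STING-/- hearts lay between them. The summed TPM of the 32 tested atrial genes was 1784 to 46166 in the WT hearts and 5762 to 16909 in the STING-/- hearts. How the hearts were cut is not stated, and the part of the atrial share in the results below was tested only as a covariate chosen after the data were seen, the mean log2 level of Myl4, Myl7, Sln, Bmp10 and Mybphl.

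Sting1 itself was examined first. It lies on chromosome 18 of GRCm38 (35733679 to 35740554, minus strand). Its TPM was 12.3, 6.59 and 6.50 in the WT hearts and 3.82, 5.96 and 2.87 in the STING-/- hearts. The groups were apart, with a difference of -0.85 (SE 0.40, adjusted p = 1 by limma). The exact permutation test of 3 hearts against 3 gave p = 0.1, the smallest it can give. Over all 6 STING-/- and 6 wild-type hearts of the study the exact permutation p was 0.004329. Transcripts of the gene were thus still counted in STING-/- hearts, and a TPM for the whole gene does not show whether they lack the targeted part.

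The genes around STING in the pathway are shown in the plot of pathway differences. Of 34 listed genes, 30 could be tested, 18 lay above 0 and 12 below, and none passed (2 had an unadjusted p under 0.05). Their median difference was 0.08, against 0.0017 over all tested genes. Of all tested genes, 50.3% lay above 0 and 49.7% below, 3.69% had an unadjusted p under 0.05 (1.48% higher and 2.21% lower in STING-/- hearts), and 7.64% were apart. Among the sensors upstream, Cgas was listed at 0.59, 0.53 and 0.48 TPM in the WT hearts and at 0.42, 0.36 and 0.35 TPM in the STING-/- hearts, too low to be tested by limma. Its groups were apart, with an exact permutation p of 0.1. Over all 6 STING-/- and 6 wild-type hearts the exact permutation p was 0.006494. Ifi204, a DNA sensor of the interferon-inducible p200 family, was at 9.07, 10.1 and 6.93 TPM in the WT hearts and at 17.2, 13.8 and 10.7 TPM in the STING-/- hearts (difference 0.61, adjusted p = 1). Zbp1, a sensor of Z-form nucleic acids, was at 11.7, 6.8 and 4.53 TPM against 13.7, 15.1 and 10.8 TPM, and WT heart 1 overlapped the STING-/- hearts (difference 0.78, adjusted p = 1). Downstream of STING, the kinase gene Tbk1 was at 9.34 to 10.9 TPM in the WT and 9.76 to 12.4 TPM in the STING-/- hearts (difference 0.10, SE 0.17), and the difference of Irf3 was -0.07 (SE 0.18). Ifnb1 was listed at 0 in all 6 hearts.

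**Figure D1:**
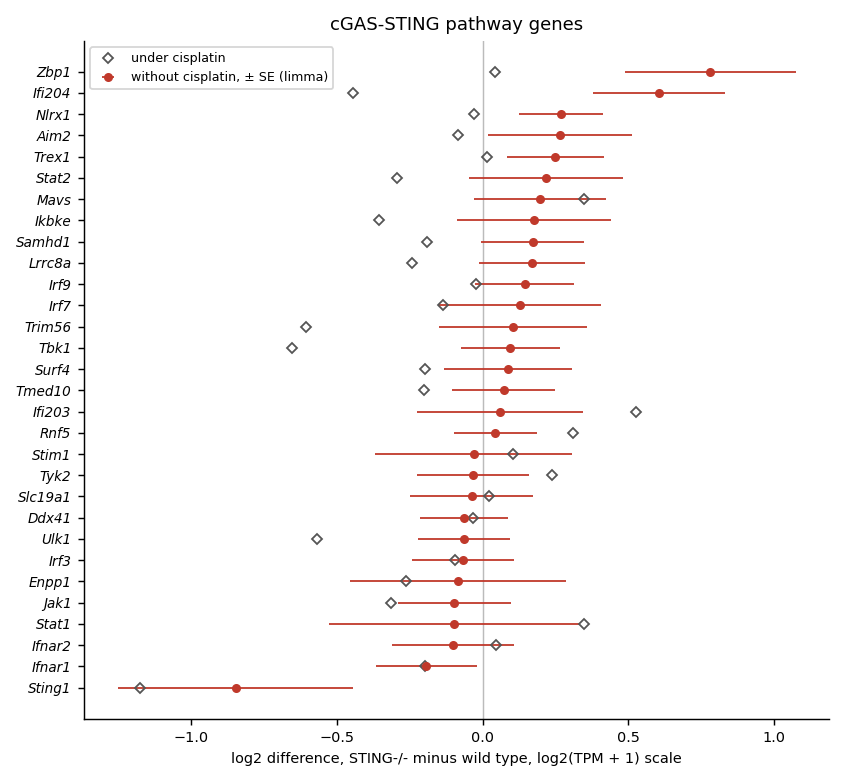
Genotype difference of the 30 tested genes of the cGAS-STING pathway, on the log2(TPM + 1) scale (x axis), by gene (y axis). Filled points are STING-/- minus WT without cisplatin with the limma SE, and open diamonds the same difference under cisplatin. Sting1 is the lowest point in both, and most other filled points lie within 0.3 of 0.

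Type I interferon-stimulated genes, the end of the pathway, did not lie lower in the hearts without STING. Of 46 tested genes 40 lay above 0 and 6 below, with a median of 0.21. None passed, 2 had an unadjusted p under 0.05, and 3 were apart, all higher in STING-/- hearts. These were Oas3, Oas1g and Herc6. Oas3, a synthase of the antiviral 2-5A messenger, was at 1.14, 0.55 and 0.59 TPM in the WT hearts and at 1.59, 1.62 and 1.19 TPM in the STING-/- hearts (difference 0.50, adjusted p = 1). Rsad2, which encodes the antiviral enzyme viperin, went the other way at 23.8, 9.51 and 18.7 TPM against 14.7, 8.97 and 11.1 TPM, with overlap. The list median was 0.07 without STING-/- heart 1 and 0.38 without WT heart 1. Under cisplatin it was 0.02, with 25 genes above 0 and 21 below. The 16 tested interferon-inducible GTPases had a median of -0.05 with 6 above 0, which was -0.31 with 2 above 0 without WT heart 2 and 0.36 without WT heart 1. The 7 tested MHC class II genes lay above 0 with a median of 0.39, which was 0.03 without WT heart 3, and no gene was apart. Of the 32 tested NF-kB and TNF response genes 17 lay above 0 and 15 below (median 0.02, and -0.16 to 0.13 with single hearts left out). None passed, and 1 had an unadjusted p under 0.05, namely Cxcl10, an interferon-inducible chemokine. It was at 9.69, 4.01 and 2.62 TPM in the WT hearts and at 2.43, 1.78 and 0.75 TPM in the STING-/- hearts (difference -1.18, SE 0.37, adjusted p = 0.937). For Tnf the exact permutation p was 0.7 without cisplatin and 0.8355 over all 6 STING-/- and 6 wild-type hearts.

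Across all genes, 10 passed an adjusted p of 0.05, or 0.0724% of those tested, 4 higher (0.029%) and 6 lower (0.0434%) in STING-/- hearts. A further measure of size is that 288 genes (2.08%) differed by at least 1 on the log2 scale. The median SE of a difference was 0.216. Of the 10 genes, 5 are protein-coding, 3 are processed pseudogenes, 1 is a noncoding transcript and 1 an assembled locus without a gene name. Leaving out WT heart 2 also left 10 genes, of which 3 were shared, namely Anks1b, Gm3375 and Gm5503. Leaving out WT heart 3 or either of STING-/- hearts 2 and 3 left 3 genes. Gm3375 and Gm5503 passed whichever single heart was left out. Both were listed at 0 in every STING-/- heart and entered the test only through wild-type hearts, so their calls describe these values. The plot of the called genes by heart gives their values in all 4 groups.

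The cardiac gene among them was Myh7, the slow beta-myosin heavy chain, which the mouse ventricle largely replaces with the fast alpha form of Myh6 after birth. Myh7 (chromosome 14, 54970684 to 54994626) was at 550, 1742 and 1190 TPM in the WT hearts and at 63.0, 43.1 and 45.0 TPM in the STING-/- hearts. It fell by 4.37 on the log2 scale (SE 0.59, adjusted p = 0.0290). The groups were apart. Myh6 was at 6010, 6157 and 4293 TPM against 5676, 6565 and 11098 TPM, with overlap (difference 0.46, adjusted p = 1). Myh7 made up 8.39%, 22% and 21.7% of the summed TPM of both heavy chains in WT hearts and 1.10%, 0.653% and 0.404% in STING-/- hearts. Both genes lie side by side on chromosome 14 and share 91.8% of their aligned bases. A stretch of a coding exon of each is shown to let their difference be seen. It was picked as the 60 bases with the most differences, so it differs more than the genes as a whole. Capitals mark the 17 bases of 60 that differ (GENCODE M21, GRCm38).
Myh7 chr14:54980325-54980384 (- strand): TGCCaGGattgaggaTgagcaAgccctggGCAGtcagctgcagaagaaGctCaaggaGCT
Myh6 chr14:54952250-54952309 (- strand): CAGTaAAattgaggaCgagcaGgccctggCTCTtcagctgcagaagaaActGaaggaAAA
The difference passed without WT heart 1 and did not pass without any other single heart, at -4.00 to -4.54. With the atrial covariate it was -4.46 (adjusted p = 0.0821). Under cisplatin Myh7 was at 770 to 1988 TPM in wild-type and 118 to 628 TPM in STING-/- hearts, again apart.

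Lyz2, which encodes the lysozyme of macrophages and other myeloid cells, had the largest rise of the 10 genes. It lies on chromosome 10 (117277331 to 117282321) and was at 0.95, 2.45 and 1.18 TPM in the WT hearts and at 706, 565 and 417 TPM in the STING-/- hearts (difference 7.81, SE 1.10, adjusted p = 0.0290). Its neighbour and paralog Lyz1, the lysozyme of Paneth cells, was at 7.72, 31.4 and 20.5 TPM in WT and 5.79, 4.48 and 3.53 TPM in STING-/- hearts, apart in the opposite direction (difference -1.72, adjusted p = 0.763). The sum of both genes was 8.67 to 33.8 TPM in WT and 421 to 712 TPM in STING-/- hearts, and was apart too. Lyz2 and Lyz1 share 95.8% of 1264 aligned bases. The stretch of their first coding exons shown here, picked as for Myh7, differs at 9 of 60 bases, in capitals.
Lyz2 chr10:117282109-117282168 (- strand): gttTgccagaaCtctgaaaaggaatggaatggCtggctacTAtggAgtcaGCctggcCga
Lyz1 chr10:117292705-117292764 (- strand): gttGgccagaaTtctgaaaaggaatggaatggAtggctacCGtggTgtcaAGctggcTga
Lyz2 did not pass when any single heart was left out, with differences of 7.63 to 8.06, nor with the atrial covariate (7.04, adjusted p = 0.0990 by limma). Of 30 tested genes on the macrophage list 19 lay above 0 and 11 below with a median of 0.07 (-0.03 to 0.21 with single hearts left out), and Lyz2 alone passed. The summed TPM of the list was 998.8 to 1343 in WT and 1339 to 2034 in STING-/- hearts, with overlap. That sum includes Lyz2 itself, at 417 to 706 TPM in STING-/- hearts, so it does not show a rise of the other macrophage genes. Fcgr1, the high-affinity receptor for immunoglobulin G, was at 4.78, 4.41 and 3.10 TPM against 7.12, 6.92 and 7.05 TPM, apart (difference 0.67, adjusted p = 1). In bulk tissue a different number of cells of a type and a different RNA level per cell cannot be told apart. Among the hearts given cisplatin Lyz2 was at 1.06, 1.01 and 83.5 TPM in wild-type and 283, 402 and 176 TPM in STING-/- hearts.

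Anks1b, a scaffold protein best known from synapses, was close to absent in STING-/- hearts. It was at 4.79, 21.7 and 10.6 TPM in the WT hearts and at 0.18, 0.28 and 0.21 TPM in the STING-/- hearts, and fell by 3.24 on the log2 scale (SE 0.45, adjusted p = 0.0290). Anks1b entered the test only through wild-type hearts, so its call, here and in the other fits, describes these values. The groups were as far apart under cisplatin, with 5.48 to 18.2 TPM against 0.04 to 0.12 TPM. Tmem160, a small mitochondrial membrane protein, was at 45.4, 56.0 and 64.9 TPM in WT and 21.7, 23.9 and 22.7 TPM in STING-/- hearts and fell by 1.23 on the log2 scale (SE 0.18, adjusted p = 0.0335). Under cisplatin its groups overlapped, at 24.4 to 29.0 TPM and 20.4 to 31.8 TPM. Mrps12, a protein of the small mitochondrial ribosomal subunit, was at 35.2, 33.2 and 31.1 TPM against 54.0, 65.6 and 58.4 TPM and rose by 0.82 on the log2 scale (SE 0.12, adjusted p = 0.0335). Its values were much the same under cisplatin, 26.5 to 29.8 TPM in wild-type and 51.8 to 57.6 TPM in STING-/- hearts. Anks1b passed without WT heart 1 or 2 and Tmem160 without WT heart 1, but neither passed when another single heart was left out, and Mrps12 passed in none of these fits. With the atrial covariate Tmem160 and Mrps12 did not pass (adjusted p = 0.0700 and 0.0990 by limma), while Anks1b did. In a fit of the 6 hearts alone Anks1b, Tmem160 and Mrps12 did not pass.

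**Figure D2:**
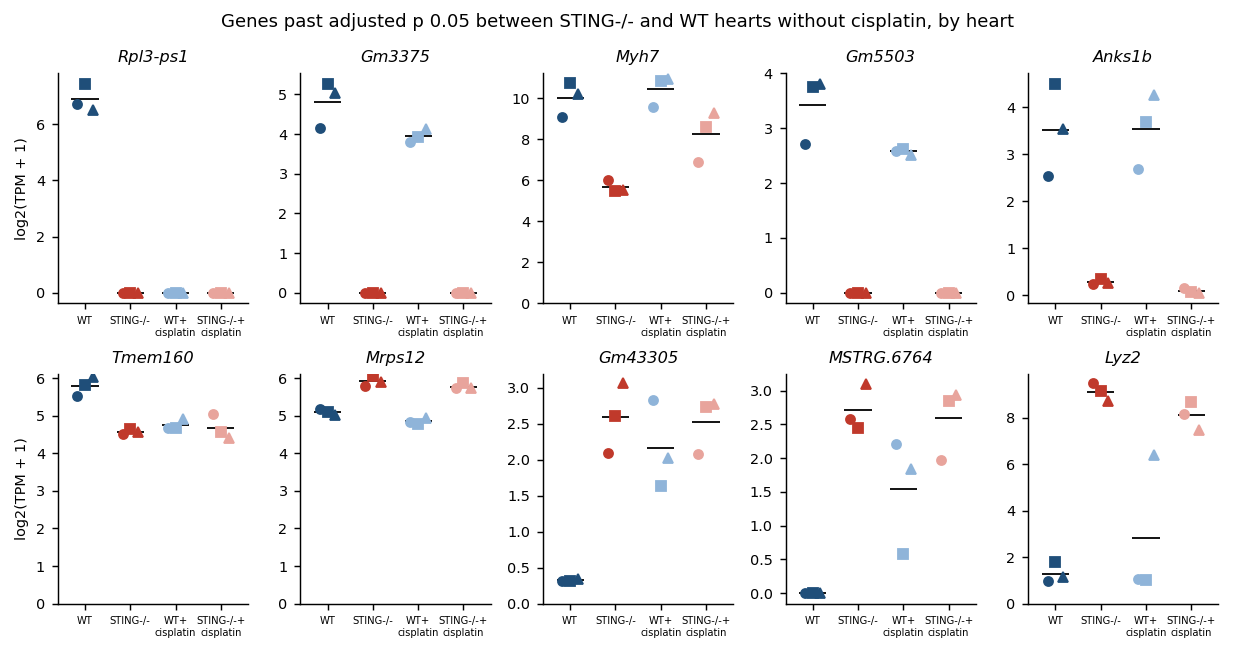
The 10 genes with an adjusted p under 0.05 between STING-/- and WT hearts without cisplatin, as log2(TPM + 1) (y axis) in the 4 groups (x axis). Each point is a heart (circle, square and triangle for hearts 1, 2 and 3 of a group) and the line is the group mean. Rpl3-ps1 is above 0 in the WT hearts only, while Gm3375, Gm5503, Anks1b, Mrps12 and Lyz2 are apart between genotypes in all 12 hearts.

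Processed pseudogenes are copies of an mRNA inserted elsewhere in the genome, and 18 of 248 tested were listed at 0 in every STING-/- heart. Of these, 7 were above 0 in every WT heart, and 3 of the 7 passed. All 3 entered the test only through wild-type hearts, so their calls do no more than describe these values. The counts were not made over all tested genes or in the other direction. They therefore do not show a loss particular to pseudogenes or to STING-/- hearts. Gm3375 (chromosome 7, 3181093 to 3181888) was at 16.7, 37.6 and 31.6 TPM in the WT hearts (adjusted p = 2.0e-06). Under cisplatin it was at 12.8 to 16.4 TPM in wild-type hearts and listed at 0 in STING-/- hearts. Its sequence aligned over its whole length to the mRNA of Psmb5, a catalytic subunit of the proteasome, with 98.9% identity. Rpl3-ps1 (chromosome X, 13202571 to 13203780) was at 104, 173 and 89.2 TPM in WT hearts and listed at 0 in the other 9 hearts of the study. It entered the test only through the 3 WT hearts in which it was high and could not be tested without any of them, so its call is no more than a description of these values. It differs from Rpl3, a protein of the large ribosomal subunit, at 2 of 1210 bases. Rpl3 was at 164, 265 and 122 TPM in WT and 250, 331 and 229 TPM in STING-/- hearts, and the sum of both was 212 to 438 TPM against 229 to 331 TPM, with overlap. Another copy, Gm45315, matched Hmgb1 at 98.8% of 332 bases. It was at 56.0, 97.9 and 4.50 TPM in WT hearts and listed at 0 in STING-/- hearts, with an adjusted p of 0.0928 by limma. Gm45315 too met the filter only through wild-type hearts. Psmb5 itself was at 114 to 138 TPM in WT and 124 to 144 TPM in STING-/- hearts, and Hmgb1 at 66.0 to 76.9 TPM and 68.7 to 92.6 TPM, both with overlap. The stretches below, picked as for Myh7, show how few bases separate a copy from its parent within a coding exon. Those bases are in capitals.
Rpl3-ps1 chrX:13202598-13202657 (+ strand): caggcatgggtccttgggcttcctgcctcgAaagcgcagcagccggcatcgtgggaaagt
Rpl3 chr15:80082500-80082559 (- strand): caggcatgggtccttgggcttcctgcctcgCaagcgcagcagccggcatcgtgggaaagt
Gm3375 chr7:3181465-3181524 (+ strand): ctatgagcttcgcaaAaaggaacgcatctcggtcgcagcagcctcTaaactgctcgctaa
Psmb5 chr14:54616589-54616648 (- strand): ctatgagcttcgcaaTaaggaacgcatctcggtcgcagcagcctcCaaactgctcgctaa
Gm45315 chr7:12797784-12797843 (+ strand): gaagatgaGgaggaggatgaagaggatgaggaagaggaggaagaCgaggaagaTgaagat
Hmgb1 chr5:149048764-149048823 (- strand): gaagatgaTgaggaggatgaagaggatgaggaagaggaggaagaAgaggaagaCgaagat
How a read that matches both copies was assigned is not stated, so the level of a copy with a near-identical parent is uncertain. 

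Gm5503, the other pseudogene that passed, lies on chromosome 18 (33384398 to 33384955). It was at 5.59, 12.6 and 13.1 TPM in WT hearts (adjusted p = 7.69e-05) and 97.8% identical to Osgep, and under cisplatin it was at 4.72 to 5.19 TPM in wild-type hearts and listed at 0 in STING-/- hearts. Pseudogenes made up 357 of the tested genes, of which 11.8% were apart between the genotypes, against 7.33% of the 12342 protein-coding genes. The other genes that passed were Gm43305, a noncoding transcript on chromosome 14 (0.24, 0.24 and 0.27 TPM in WT and 3.27, 5.11 and 7.34 TPM in STING-/- hearts), and MSTRG.6764, which was listed at 0 in the WT hearts and at 4.96, 4.46 and 7.56 TPM in STING-/- hearts (both adjusted p = 0.0290). The deposited annotation assigns retroviral protein domains to MSTRG.6764. Both overlapped between genotypes under cisplatin, and neither passed after scaling by the median of ratios (adjusted p = 0.065 and 0.062 by limma).

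Hearts given cisplatin offered a look at the same genotype difference in other animals. Their values do not enter the untreated difference itself, but they enter the filter and the SE of its test. The average and the counts over all 12 hearts include the untreated hearts too. Averaged over both treatments, 25 genes passed (0.181% of those tested), 13 higher (0.0941%) and 12 lower (0.0869%) in STING-/- hearts. All 6 STING-/- hearts lay on the same side of all 6 wild-type hearts for 66 genes, or 0.478% of those tested, 23 higher (0.166%) and 43 lower (0.311%). Over all tested genes the differences with and without cisplatin had a Pearson correlation of 0.12 and a Spearman correlation of -0.02 across genes, which are not independent replicates. The median of all differences was 0.0017 without and -0.09 with cisplatin. Rpl3-ps1 was the single gene for which the difference between the genotype effects passed (0.00724% of those tested), and this restates the WT values through which it entered the test. In that limma test an unadjusted p under 0.05 was reached by 1615 genes (11.7%).

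Protein-coding genes that both passed on average and were apart in all 12 hearts included Ide, Scn4b, Scn4a, Adig and Sae1. Without cisplatin none of these passed (adjusted p = 0.157 to 0.848 by limma), nor did Lgals4 below (adjusted p = 0.129). Ide, which encodes the insulin-degrading enzyme, was at 17.2, 15.1 and 13.3 TPM in the WT and 27.0, 29.6 and 35.9 TPM in the STING-/- hearts without cisplatin, and at 11.4 to 17.5 TPM and 21.7 to 28.1 TPM with it (average difference adjusted p = 0.0463). Scn4b, a beta subunit of the cardiac sodium channel, was at 2.41, 1.75 and 1.09 TPM against 3.76, 5.49 and 5.64 TPM without cisplatin (average adjusted p = 0.0205). Scn4a, the pore-forming sodium channel of skeletal muscle, was at 1.63 to 1.88 TPM in WT and 2.83 to 4.88 TPM in STING-/- hearts (average adjusted p = 0.0235). These 3 genes were thus higher in every STING-/- heart of either treatment. Sae1, a subunit of the enzyme that activates SUMO, was lower, at 44.0, 39.0 and 33.4 TPM against 20.5, 23.6 and 22.2 TPM (average adjusted p = 0.0440). Adig, a small protein of fat cells, was at 0.53, 1.37 and 0.74 TPM in WT and 4.99, 4.71 and 2.33 TPM in STING-/- hearts (average adjusted p = 0.0471). Lgals4, an intestinal galectin, also passed on average although its values overlapped across treatments. It was at 5.67, 4.66 and 3.47 TPM against 11.6, 12.9 and 12.5 TPM without cisplatin, and at 8.62 to 16.1 TPM against 31.0 to 47.7 TPM with it (average adjusted p = 0.00426).

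Some of these genes were neighbours. Chromosome 7 held 11 of the 66 genes, or 1.08% of its 1023 tested genes, a share like those of chromosome 8 (1.09%) and chromosome 18 (1.11%). On chromosome 7, 9 of these 11 started within its first 30 Mb, a limit chosen after the values were seen. They were Gm3375, Gm45844, Gm18190, Gm45315, Sae1, Ccdc61, Snrpd2, Mrps12 and Sirt2. Within these 30 Mb 3.41% of 264 tested genes were apart in all 12 hearts and 14.8% without cisplatin, against 0.264% and 7.51% of the 759 genes beyond. Mrps12 lies at 28739641 and Sirt2 at 28766735, and they differed in opposite directions. Sirt2, a cytosolic deacetylase, was at 75.0, 95.8 and 76.2 TPM in WT and 53.5, 61.3 and 52.7 TPM in STING-/- hearts (difference -0.55, adjusted p = 0.699). Tmem160, at 16452779, is in the same region.

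**Figure D3:**
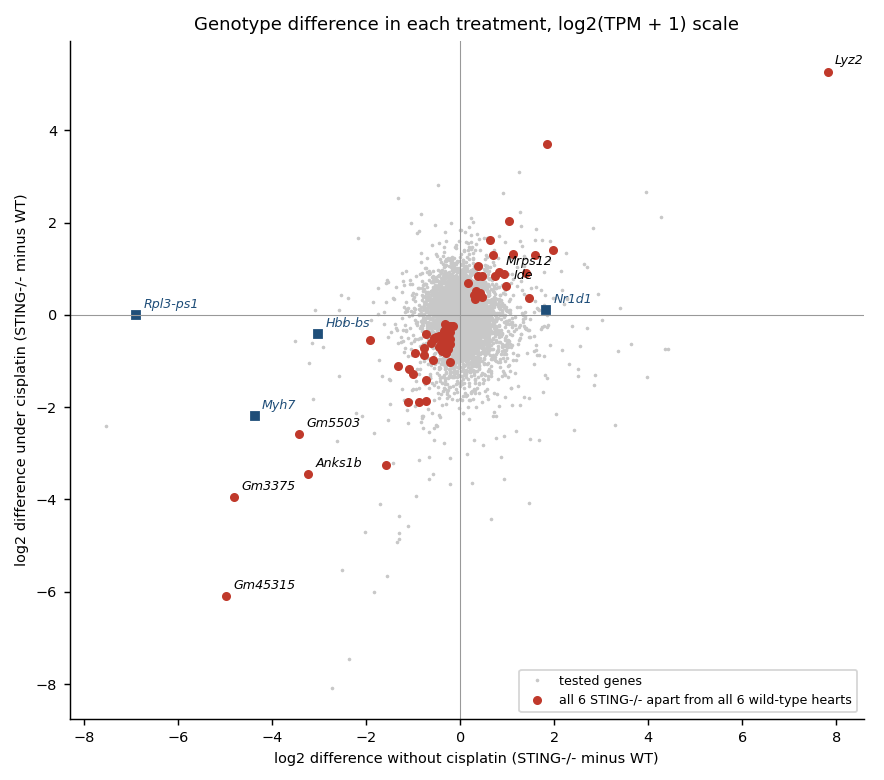
Genotype difference of each of the 13815 tested genes without cisplatin (x axis) and under cisplatin (y axis), both STING-/- minus wild type on the log2(TPM + 1) scale. Red points are the 66 genes with all 6 STING-/- hearts apart from all 6 wild-type hearts, and blue squares are other genes named in the text. Lyz2 is far to the upper right, and Rpl3-ps1 lies at -6.88 on the x axis and at 0 on the y axis.

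The region around Sting1 on chromosome 18 was looked at in the same way. Of 107 tested genes within 5 Mb, 41 lay above 0 and 66 below, with a median of -0.05, but without WT heart 2 64 lay above 0 and the median was 0.04. None was apart with higher values in STING-/- hearts and 11 were apart with lower values, against 2.76% and 4.88% of all tested genes. Gm5503 passed and 7 of the 107 had an unadjusted p under 0.05, all lower. Nrep, a regulator of fibroblast and neuronal growth, was at 46.1, 16.5 and 13.3 TPM in WT and 9.14, 7.15 and 10.1 TPM in STING-/- hearts (difference -1.23, SE 0.39, adjusted p = 0.964). Epb41l4a, a protein of the cell cortex, was at 4.93, 2.76 and 4.15 TPM against 2.42, 2.39 and 1.99 TPM, and Ndufa2, a subunit of respiratory complex I, at 438, 405 and 469 TPM against 381, 394 and 393 TPM. Under cisplatin Nrep overlapped between the genotypes, Epb41l4a was apart in the other direction (0.56 to 1.10 TPM in wild-type and 1.15 to 1.53 TPM in STING-/- hearts), and Ndufa2 was again lower in STING-/- hearts (466 to 535 TPM against 400 to 455 TPM).

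Gene lists were then described by their counts and medians, without a test, and are shown in the plot of list medians. Red blood cell genes had the lowest median of all lists, -2.24. Of 10 tested genes 8 lay below 0, and 7 of these were apart, all lower in STING-/- hearts, with 0 passing and 7 with an unadjusted p under 0.05. Hbb-bs, an adult beta-globin, was at 2788, 1949 and 4181 TPM in the WT hearts and at 578, 640 and 115 TPM in the STING-/- hearts (difference -3.01, adjusted p = 1). Alas2, the erythroid enzyme that starts heme synthesis, was at 18.3, 12.8 and 27.8 TPM against 3.93, 3.91 and 0.49 TPM (difference -2.58, adjusted p = 0.1). The sum of 4 globin genes was 4133 to 9289 TPM in WT and 263 to 1462 TPM in STING-/- hearts, with no overlap. The markers of nucleated erythroid cells Rhag and Klf1 were at or near 0 in all 6 hearts. The median was -2.54 without WT heart 2 and -1.79 with the atrial covariate. Under cisplatin it was -0.13.

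Cell proliferation genes lay lower as well. Of 17 tested genes 15 lay below 0, with a median of -0.28 (-0.12 without WT heart 1), and 5 were apart, all lower, or 29.4% of the list. Birc5, the mitotic protein survivin, was at 2.82, 1.13 and 1.91 TPM in WT and 0.56, 0.35 and 0.15 TPM in STING-/- hearts (difference -1.10, SE 0.23, adjusted p = 0.214). Cdk1, the mitotic cyclin-dependent kinase, was at 9.77, 2.76 and 3.04 TPM against 2.21, 2.63 and 0.63 TPM. Stmn1, Cdc20 and Rrm2 were the other 3. None passed, and 5 had an unadjusted p under 0.05. Under cisplatin 8 of the list lay above 0 and 9 below, with a median of -0.03.

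Circadian clock genes were the list with the largest share of genes apart after the red blood cell list, 37.0% of 27. Of these genes 19 lay above 0 and 8 below with a median of 0.54, none passed, and 12 had an unadjusted p under 0.05. Genes higher in STING-/- hearts included repressors and output factors that clocks drive through the E-box, such as Nr1d1, Ciart, Dbp and Per1. Nr1d1, the nuclear receptor REV-ERB alpha, was at 13.6, 33.2 and 11.1 TPM in WT and 49.9, 83.5 and 61.5 TPM in STING-/- hearts (difference 1.83, SE 0.38, adjusted p = 0.192). Dbp, an output transcription factor, was at 10.9, 81.1 and 14.3 TPM against 115, 95.8 and 113 TPM (difference 2.14, adjusted p = 0.674). Ciart, a repressor of the clock activators, was at 0.93, 4.62 and 2.31 TPM against 13.2, 8.41 and 11.4 TPM (difference 1.84, adjusted p = 0.237). WT heart 2 lay nearest the STING-/- hearts in all 3 genes. Genes of the opposite phase lay lower. Npas2, a clock activator, was at 3.33, 0.94 and 1.12 TPM against 0.33, 0.57 and 0.49 TPM (difference -0.84, adjusted p = 1). Arntl, which encodes the activator BMAL1, was at 13, 3.09 and 6.10 TPM against 1.46, 3.84 and 2.17 TPM, with overlap. Cry1, a late repressor, was at 6.79, 6.84 and 7.20 TPM against 4.83, 3.46 and 4.34 TPM (difference -0.62, adjusted p = 0.934). The time of day at which each heart was taken is not given and cannot be told apart from genotype. Without WT heart 2 Nr1d1 and Dbp passed (adjusted p = 0.0255 and 0.0119). The list median was 0.22 without WT heart 1 and 0.09 with the atrial covariate, and under cisplatin it was -0.29.

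The E-box that the clock activators bind was searched as the letters CACGTG, which read the same on both strands, in RefSeq promoters (GRCm38.p6, 250 bases before to 50 after the start site). Of 21 clock genes matched, 6 held it in at least 1 promoter, as did 8.09% of all 27025 genes (7.15% of 32851 promoters). The 6 were Bhlhe41, Ciart, Cry1, Klf15, Per1 and Tef, so no match was found for Nr1d1 or Dbp in this search. The matches are shown for 3 genes that lay higher in STING-/- hearts, Ciart, Klf15 and Per1, and for Cry1, which lay lower. Each stretch of 100 bases lies before the start site, and capitals mark the E-box.
Ciart chr3:95882249-95882348 (- strand): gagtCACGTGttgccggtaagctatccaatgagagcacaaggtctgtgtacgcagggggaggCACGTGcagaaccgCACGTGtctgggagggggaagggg
Klf15 chr6:90462329-90462428 (+ strand): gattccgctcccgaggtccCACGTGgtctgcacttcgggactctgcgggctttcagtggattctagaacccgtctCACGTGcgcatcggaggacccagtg
Per1 chr11:69098736-69098835 (+ strand): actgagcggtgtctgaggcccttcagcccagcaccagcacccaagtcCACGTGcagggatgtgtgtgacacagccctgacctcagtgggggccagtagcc
Cry1 chr10:85185062-85185161 (- strand): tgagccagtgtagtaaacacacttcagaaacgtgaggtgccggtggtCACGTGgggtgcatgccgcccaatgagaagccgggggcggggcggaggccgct
The motif was thus found in promoters of genes on either side. Per1, an early repressor, was at 8.71, 18.5 and 12.2 TPM in WT and 22.8, 21.7 and 19.4 TPM in STING-/- hearts, and Klf15, a regulator of cardiac metabolism, at 18.8, 38.5 and 41.7 TPM against 45.6, 48.2 and 43.3 TPM.

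Genes induced by glucocorticoids, many of which also cycle with the day, had a median of 0.40, with 25 of 33 above 0. For Fkbp5, a chaperone of the glucocorticoid receptor, WT heart 1 stood alone at 2.76 TPM, beside 39.7 and 34.3 TPM in the other WT hearts and 29.2 to 42.3 TPM in STING-/- hearts. Without WT heart 1 the list median was 0.12. Under cisplatin it was -0.45, with 6 genes above 0 and 27 below.

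**Figure D4:**
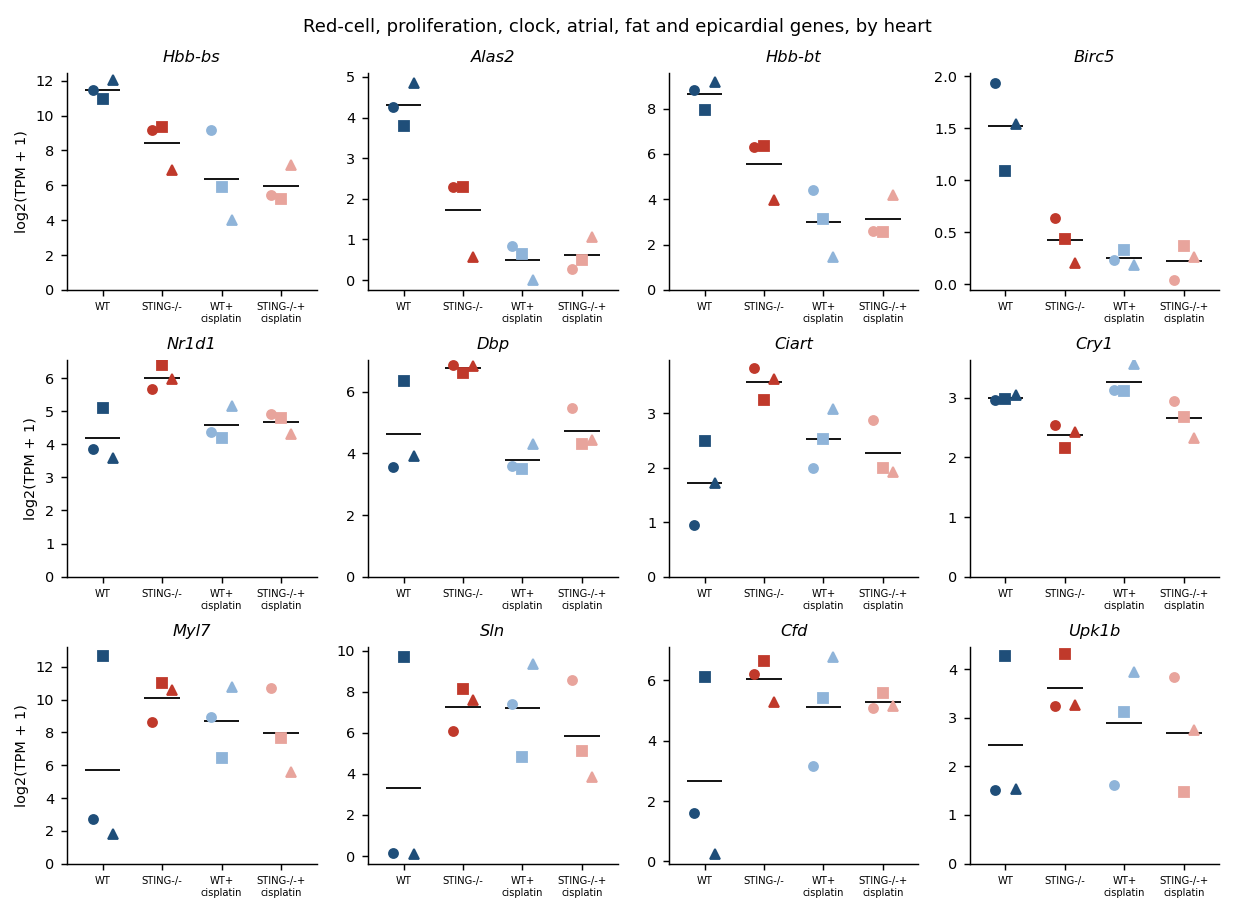
Expression of 12 genes as log2(TPM + 1) (y axis) by heart in the 4 groups (x axis), with circle, square and triangle for hearts 1, 2 and 3 and a line at the group mean. The top row shows red-cell genes and Birc5 lower in STING-/- than WT hearts without cisplatin. In the bottom row WT heart 2 lies with or above the STING-/- hearts for atrial (Myl7, Sln), fat (Cfd) and epicardial (Upk1b) genes, while WT hearts 1 and 3 lie below them.

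Several fat, epicardial and atrial genes were highest among WT hearts in WT heart 2. Of 25 tested fat genes 22 lay above 0 with a median of 0.44, 12 had an unadjusted p under 0.05, and 6 were apart, all higher. Plin1, which coats lipid droplets, was at 0.27, 2.12 and 0 TPM in WT and 3.81, 7.83 and 2.29 TPM in STING-/- hearts. Cfd, the adipocyte protease adipsin, was at 2.06, 67.8 and 0.19 TPM against 73.2, 99.8 and 38.4 TPM, with overlap through WT heart 2. Fasn, the fatty acid synthase, was at 7.84, 20.6 and 7.81 TPM against 31.5, 30.8 and 21.0 TPM (difference 1.25, adjusted p = 0.878). The summed TPM of the fat list did not separate the groups, at 2358 to 3292 in WT and 2631 to 3101 in STING-/- hearts, and the list median was 0.32 to 0.53 whichever single heart was left out. The 14 tested epicardial genes had a median of 0.74, which became 1.39 without WT heart 2 and -0.16 with the atrial covariate, and none was apart. For the 32 tested atrial genes the median was 0.31, with 0.90 without WT heart 2 and 0.03 without WT heart 1.

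Acute phase genes, which tissues switch on under interleukin-6, lay above 0 for all 17 tested, with a median of 0.72. Lcn2, lipocalin 2, was at 1.38, 15.0 and 12.9 TPM in WT and 24.9, 142 and 25.6 TPM in STING-/- hearts (difference 2.51, adjusted p = 0.967). Saa3, a local serum amyloid, was at 1.01, 3.46 and 1.98 TPM against 6.84, 110 and 3.78 TPM (difference 2.43, adjusted p = 1). STING-/- heart 2 was the highest for both, and without it the list median was 0.33. The same heart held a summed TPM of 240 for neutrophil genes, against 21.7 to 42.4 in the other 5 hearts. None of the acute phase list passed, and 5 had an unadjusted p under 0.05. Under cisplatin 4 acute phase genes lay above 0 and 13 below, with a median of -0.64. The 9 tested neutrophil genes all lay below 0 there, with a median of -1.21.

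The unfolded protein response of the endoplasmic reticulum, the organelle that holds STING, also lay above 0 throughout, in 24 of 24 tested genes with a median of 0.23 (0.09 without WT heart 3). The differences were small. Hspa5, the chaperone BiP, was at 220, 216 and 158 TPM in WT and 208, 259 and 280 TPM in STING-/- hearts (difference 0.33, adjusted p = 1). Sdf2l1, a cofactor of BiP, was at 13.6, 14.4 and 9.16 TPM against 16.5, 22.7 and 16.4 TPM (difference 0.55, adjusted p = 1). Of the 24 genes 5 were apart, all higher, none passed and 1 had an unadjusted p under 0.05. Under cisplatin 14 lay above 0 and 10 below, with a median of 0.14. With the atrial covariate, under which the median of all genes was -0.13, the list median was -0.02. The element bound by ATF6 in such genes is the ER stress response element, which was searched on both strands. It occurred in at least 1 promoter of 8 of 21 matched genes and of 0.137% of all genes (0.119% of all promoters). It is shown in capitals for 3 of the genes apart, Hsp90b1, Creld2 and Syvn1, which encode a chaperone, a secreted chaperone-like protein and a ubiquitin ligase of the endoplasmic reticulum.
Hsp90b1 chr10:86705493-86705592 (- strand): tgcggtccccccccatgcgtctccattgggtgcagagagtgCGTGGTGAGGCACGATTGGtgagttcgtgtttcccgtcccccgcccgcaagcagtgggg
Creld2 chr15:88819479-88819578 (+ strand): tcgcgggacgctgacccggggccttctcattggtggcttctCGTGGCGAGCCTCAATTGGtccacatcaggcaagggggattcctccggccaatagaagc
Syvn1 chr19:6046476-6046575 (+ strand): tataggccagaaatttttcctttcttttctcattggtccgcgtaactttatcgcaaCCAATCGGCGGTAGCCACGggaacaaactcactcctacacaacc
Hsp90b1 was at 142, 133 and 93.4 TPM in WT and 144, 144 and 149 TPM in STING-/- hearts, so the groups were apart by little and WT heart 3 set the difference of 0.27.

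**Figure D5:**
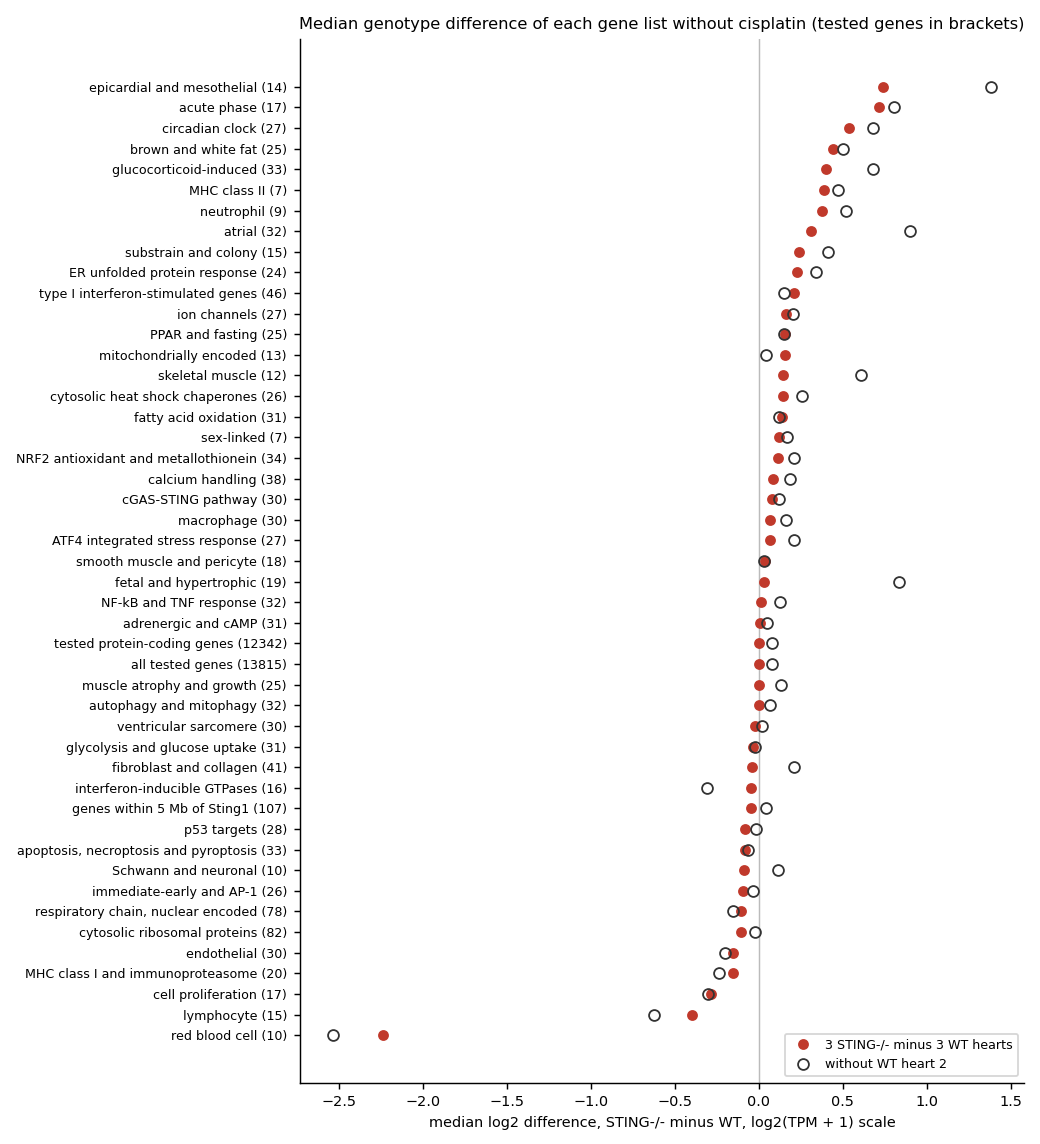
Median difference (STING-/- minus WT without cisplatin, log2(TPM + 1) scale, x axis) of each gene list (y axis, tested genes in brackets). Red points use all 6 hearts and open circles leave out WT heart 2. Red blood cell genes lie at -2.24, while atrial, epicardial and fetal genes move most between the points.

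Among the genes of heart muscle, the sarcomere list centred on 0 apart from Myh7. Its 30 tested genes had a median of -0.02 with 11 above 0 and 19 below, and Myh7 alone passed. Tcap, which anchors titin at the Z-disc, was at 1015, 2553 and 1660 TPM in WT and 2756, 3307 and 3280 TPM in STING-/- hearts (difference 0.93, adjusted p = 0.923). Myom2, a protein of the M-band, was at 322, 359 and 240 TPM against 192, 202 and 192 TPM, apart and lower. Without WT heart 2 17 of the 30 lay above 0, and the median was 0.02. Of 19 tested fetal and hypertrophic genes 12 lay above 0 and 7 below, with a median of 0.03, while without WT heart 2 14 lay above 0 with a median of 0.84. Among those below, Nppb, the B-type natriuretic peptide, was at 456, 1175 and 513 TPM against 165, 162 and 432 TPM (difference -1.52, SE 0.84, adjusted p = 1), apart. The atrial natriuretic peptide Nppa was at 300, 25687 and 333.1 TPM against 2042, 8597 and 5623 TPM and followed the atrial genes. Calcium handling genes had a median of 0.09 (-0.0010 to 0.19 with single hearts left out). Strit1, a peptide that activates the calcium pump, was at 24.5, 21.8 and 52.1 TPM against 69.3, 55.5 and 55.5 TPM, and Camk2b, a calcium-dependent kinase, at 6.67, 10.5 and 12.5 TPM against 3.70, 4.88 and 5.33 TPM, both apart in opposite directions. The pump gene Atp2a2 was at 2360 to 3484 TPM and 2366 to 4100 TPM. Kcnip2, a subunit of the transient outward potassium channel, was at 100, 45.6 and 54.2 TPM in WT and 35.6, 24 and 32.2 TPM in STING-/- hearts (difference -1.03, adjusted p = 1).

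Genes of energy metabolism differed little. Of 78 tested nuclear genes of the respiratory chain 70 lay below 0, with a median of -0.10, and 11 were apart, all lower (14.1% of the list). Ndufa1, of complex I, was at 728, 705 and 765 TPM in WT and 605, 649 and 668 TPM in STING-/- hearts (difference -0.19, adjusted p = 1). The 31 tested genes of fatty acid oxidation lay the other way, 26 above 0 with a median of 0.14, and Acsl1, which activates fatty acids, was at 200, 226 and 230 TPM against 232, 263 and 339 TPM. None of either list had an unadjusted p under 0.05. Under cisplatin 52 of the respiratory chain genes lay above 0 and 26 below, with a median of 0.05. For fatty acid oxidation 28 lay above 0 and 3 below there, with a median of 0.31. Cytosolic ribosomal protein genes lay below 0 for 75 of 82 with a median of -0.11, which was -0.02 without WT heart 2. Nnt, the mitochondrial transhydrogenase, part of which is deleted in the Jackson C57BL/6J substrain, was at 148, 99.0 and 198 TPM in WT and 230, 188 and 290 TPM in STING-/- hearts, with overlap (difference 0.70, adjusted p = 0.967), and a TPM for the whole gene does not show the deletion.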

How the data were processed

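RNA was taken from heart tissue of 12 mice, 3 hearts a group, on day 22, and sequenced by a company. The deposited values are length-corrected transcript abundances (TPM) per gene for 55885 genes, which the authors made from the reads. The submitters' processing notes name fastp, HISAT, RSEM and the build GRCm38.p5, with no versions. TPM keep no read depth, so no counting intervals can be given. Genes reaching a TPM of 1 in 3 or more of the 12 hearts were tested on log2(TPM + 1) with limma 3.58.1 in R 4.3.3, with 1 coefficient a group, a trended prior, 8 residual degrees of freedom and Benjamini-Hochberg adjustment, 2-sided. Single values were tested with the exact permutation test. On simulated data with 200 of 13815 genes changed by 2 on the log2 scale, 88% were recovered and 2.76% of calls were false. Each heart is a separate mouse. Same-numbered hearts were not taken as pairs. Copies and paralogs were aligned with blastn 2.17.0 to GENCODE M21 transcripts, and motifs were searched in RefSeq promoters. Columns of the authors' group means were not used.

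The comparison, its gene lists and tests were chosen with earlier results of these data known. Named genes are those of the cGAS-STING list, those that passed, the 12 largest rises and falls without overlap, 4 genes a list by p and 2 by mean TPM, those without overlap near Sting1, and the 12 largest average differences apart in all hearts. Other genes, among them Lyz1, Myh6, Rpl3, Psmb5, Osgep, Hmgb1, Sirt2, Lgals4 and those shown for a motif, were chosen after their values were seen. Alternatives were another pseudocount, filter, scaling, weighting and block, the 6 hearts alone, and each heart left out in turn. Strand use and how reads shared by copies were split are not given in the sources used here. Some genes are not reported here.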

Additional observations from a re-analysis of the deposited data

Results flagged for a closer look

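Rpl3-ps1 was flagged because its genotype difference differed between the hearts with and without cisplatin. The difference under cisplatin minus that without it was 6.88 on the log2(TPM + 1) scale. The pseudogene was listed at 104, 173 and 89.2 TPM in the 3 WT hearts and at 0 in the other 9 hearts. It entered the test only through those 3 WT hearts, so the difference describes these values and is given with no test.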

How the results depend on the processing

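The count of 10 genes between STING-/- and WT hearts became 4 with no filter on low values, 29 with array weights and 6 with the atrial marker level as a covariate, which was chosen after seeing the data. Leaving out single hearts gave 3 to 12 genes. With the replicate number as a block 5 genes passed, all lower, namely Myh7, Anks1b, Rpl3-ps1, Gm3375 and Gm5503. With the 6 hearts alone 11 genes passed. Of these, 7 were among the 10, without Anks1b, Tmem160 and Mrps12. Same-numbered hearts correlated in their deviations at 0.126, 0.261 and 0.061, and differently numbered hearts at -0.200 to 0.131. What the numbers stand for is not given, and they were not taken as pairing the hearts. The 25 genes of the average became 68 with the median of ratios, 69 with quantile normalization, 161 with the atrial covariate and 10 to 60 when single hearts were left out. The 1 gene that differed in its genotype effect became 5, 3 and 2 under the same scalings and covariate, and 0 to 12 when single hearts were left out. The causes were not tested. The other alternatives kept each count within 1.5 times, and the Sting1 difference kept its direction and did not pass in any. Depth is unknown, and 3 hearts against 3 limit what could pass.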
